A study of Homo sapiens with 2 samples.

Results

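The genes of the centromere, the kinetochore and the spindle checkpoint were read as 1 group of 47 genes in A549 cells that overexpressed the zinc finger gene ZNF300 (A549-ZNF300), compared to A549 cells with the control vector (A549-LV5, also designated A549-ZNF300-NC). The members were listed by name and sorted by the subcomplex they belong to; the rule used no signal, but the group was chosen with earlier results of these data known. Of the 47, 46 were measured, out of 13221 measured genes of the 19775 genes on the array. CENPP alone had no value, because its probe set names 2 genes. A549 is a human lung adenocarcinoma line. The vector LV5 is a lentiviral vector with green fluorescent protein and puromycin resistance. Both cell populations carried the vector, and only A549-ZNF300 carried the ZNF300 coding sequence on it. Total RNA of each population was hybridised to 1 Affymetrix U133 Plus 2.0 array. Whether each population was pooled or grown from a clone is not given in the sources used here. No spread between replicates therefore existed and no test was possible, and precision is limited by there being 2 arrays. Every difference compares those arrays. It is given as a log2 ratio of A549-ZNF300 over A549-LV5, in which 1 stands for a 2-fold higher signal in A549-ZNF300.

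Centromeres are marked by nucleosomes that hold the histone variant CENP-A. On these nucleosomes the inner kinetochore assembles throughout the cycle, and in mitosis it recruits the outer kinetochore, which grips spindle microtubules. The spindle checkpoint delays anaphase until each kinetochore is attached, and the chromosomal passenger complex releases wrong attachments. Most of these genes are transcribed late in the cell cycle, so their messages are known as a signature of dividing cells. In RNA of bulk cells, a larger share of cells in G2 and mitosis and more RNA per cell cannot be told apart.

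ZNF300, the overexpressed gene, reached 8.91 in A549-ZNF300 on the log2 signal scale and 4.16 in A549-LV5, in the direction of the labels. The hybridisation and spike probe sets, 18 in number, had ratios between -0.16 and 0.16. The array medians were 6.03 in A549-ZNF300 and 6.14 in A549-LV5, a difference of -0.11, and the median ratio over all genes was -0.06. The markers of the line went partly against the label of the control array. All 9 markers of A549 and lung adenocarcinoma epithelium lay at or above the array median in A549-ZNF300, with signals of 8.84 to 15.19, compared to 6 of 9 in A549-LV5, with signals of 1.20 to 14.78. The summed level of the list on the log2 scale was 17.29 in A549-ZNF300 and 15.998 in A549-LV5. KRT19, CDH1 and ALDH3A1 were at 11.08, 10.94 and 13.34 in A549-ZNF300, above the median, and at 2.29, 1.20 and 1.93 in A549-LV5, below it. Of 8 mesenchymal genes, 5 in A549-ZNF300 and 4 in A549-LV5 lay at or above the median, with summed levels of 15.47 in A549-ZNF300 and 14.93 in A549-LV5. Of 5 leukocyte genes 2, and of 4 endothelial genes 1, reached the median on each array. CD14 had 7.74 in A549-ZNF300 and 6.73 in A549-LV5, and CD3E had 6.10 in A549-ZNF300 and 6.61 in A549-LV5. PECAM1 had 7.04 in A549-ZNF300 and 6.77 in A549-LV5. The defining leukocyte gene PTPRC had signals of 4.38 in A549-ZNF300 and 3.94 in A549-LV5 and the endothelial gene CDH5 of 4.48 in A549-ZNF300 and 2.18 in A549-LV5, below the median on either array. Of the mesenchymal genes, CDH2 was 63.0-fold, FN1 19.5-fold, COL3A1 14.4-fold and COL1A1 5.84-fold higher in A549-ZNF300, CDH2 and COL3A1 from signals below the median in A549-LV5. VIM and THY1 went the other way, with ratios of -0.37 and -0.83. THY1 had a dim signal of 5.92 in A549-ZNF300, below the median, and 6.74 in A549-LV5. The 6 mesenchymal genes detected had a median ratio of 3.19, and the 9 epithelial genes of 2.37. Both medians include genes that passed only through A549-ZNF300, where they are high. These were CDH2 and COL3A1 in the first list and KRT19, CDH1 and ALDH3A1 in the second. COL1A2 and PDGFRB, below the median on both arrays, were left out. Neither median therefore measures the size of a difference for its list. The part of these marker differences in the results was not tested. The arrays thus differed in genes that define the line, and whether the populations differed in line or culture besides ZNF300 cannot be told apart from ZNF300 in any ratio below.

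The kinetochore genes were higher in A549-ZNF300 nearly throughout. Of the 46 measured members, 33 had a signal at least 2-fold higher in A549-ZNF300 and 0 were at least 2-fold lower, whereas the shares over all genes were 13.6% for higher and 15.4% for lower. All 46 ratios were positive, against 46.6% of all genes, although CENPQ lay at -0.02 when the arrays were centred on 12 housekeeping genes. The median ratio of the members was 1.44, which is 2.71-fold, with an SD of 0.69 between members. The ratios ran between 0.06 for CENPQ (1.05-fold) and 2.73 for BIRC5 (6.64-fold). At least 1.5-fold higher were 39 members, against 22.5% of all genes, and at least 3-fold higher were 19 members, against 7.64% of all genes. The signals of the members themselves ran between 7.48 and 13.34, with a median of 10.48, in A549-ZNF300, and between 6.14 and 12.78, with a median of 9.05, in A549-LV5. Thus 45 of the 46 lay at or above the array median on both arrays, and 32 of these 45 were at least 2-fold higher, against 9.31% of all genes filtered that way. SGO1 was the exception, with 7.48 in A549-ZNF300 and 6.14 in A549-LV5, just below the median of the control array. The plot of the signals by subcomplex shows each pair.

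**Figure D1:**
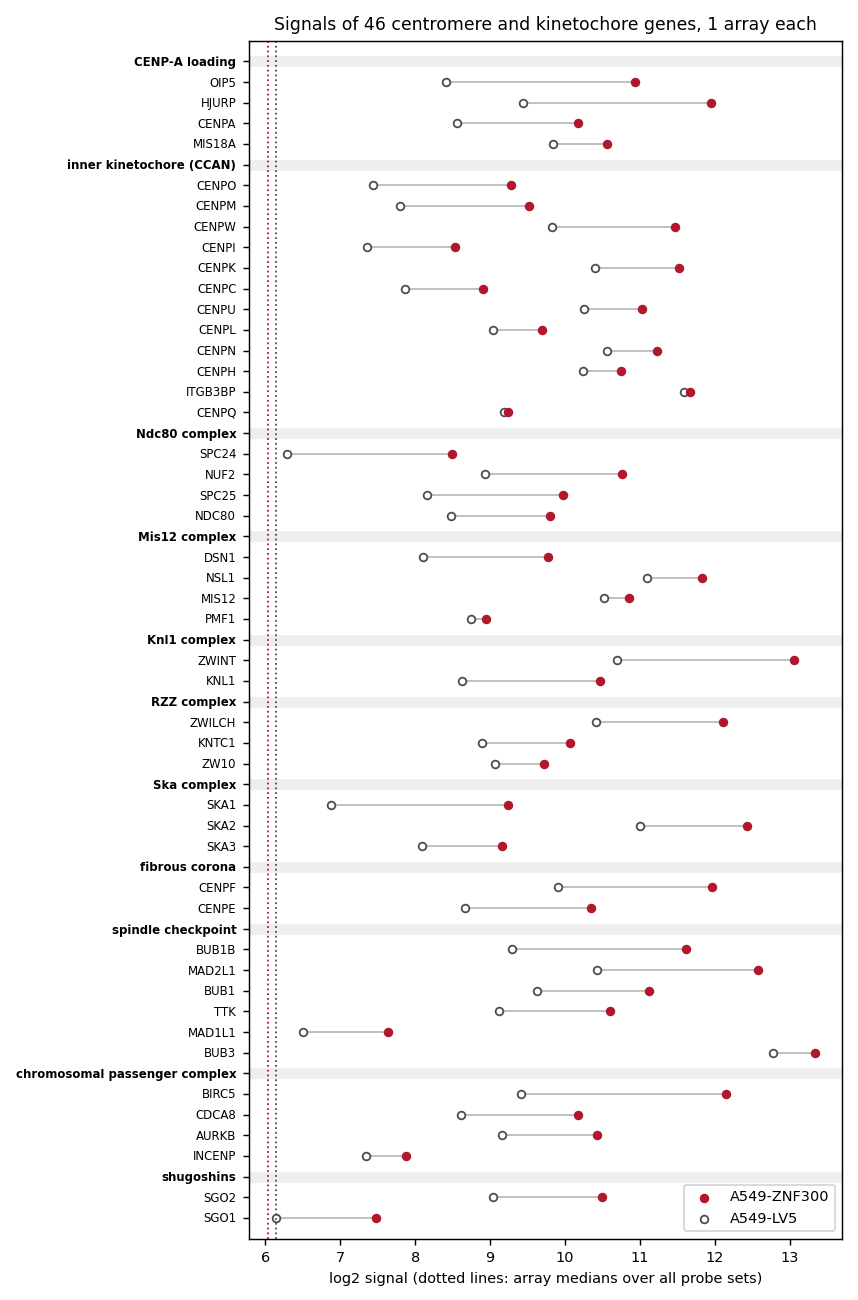
Log2 signal of each of the 46 measured members in A549-ZNF300 (filled) and in A549-LV5 (open), 1 array each, by subcomplex, with dotted lines at the array medians. Every filled point lies to the right of its open point, by 0.06 for CENPQ and by up to 2.73 for BIRC5; with housekeeping centring CENPQ lies at -0.02.

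The subcomplexes differed in the size of the change. The median ratio was 2.10 for the 2 measured genes of the Knl1 complex, 2.06 for the 4 CENP-A loading genes, 1.87 for the 2 fibrous corona genes and 1.83 for the 4 genes of the Ndc80 complex. It was 1.49 for the 6 checkpoint genes, 1.42 for the chromosomal passenger complex and also 1.42 for the Ska complex, 1.40 for the shugoshins and 1.16 for the RZZ complex. The lowest medians were those of the constitutive inner kinetochore, with 0.91 over 12 genes, and of the Mis12 complex, with 0.54 over 4 genes. These are sets of 2 to 12 genes on 1 array pair, so the order is a description. It also changed with the choice of probe set. With medians over probe sets the Knl1 complex was at 1.78, below CENP-A loading (2.06), the fibrous corona (1.87) and the Ndc80 complex (1.83). All 13 members under 2-fold belonged to 6 of the 11 subcomplexes, 6 of them to the inner kinetochore and 3 to the Mis12 complex.

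**Figure D2:**
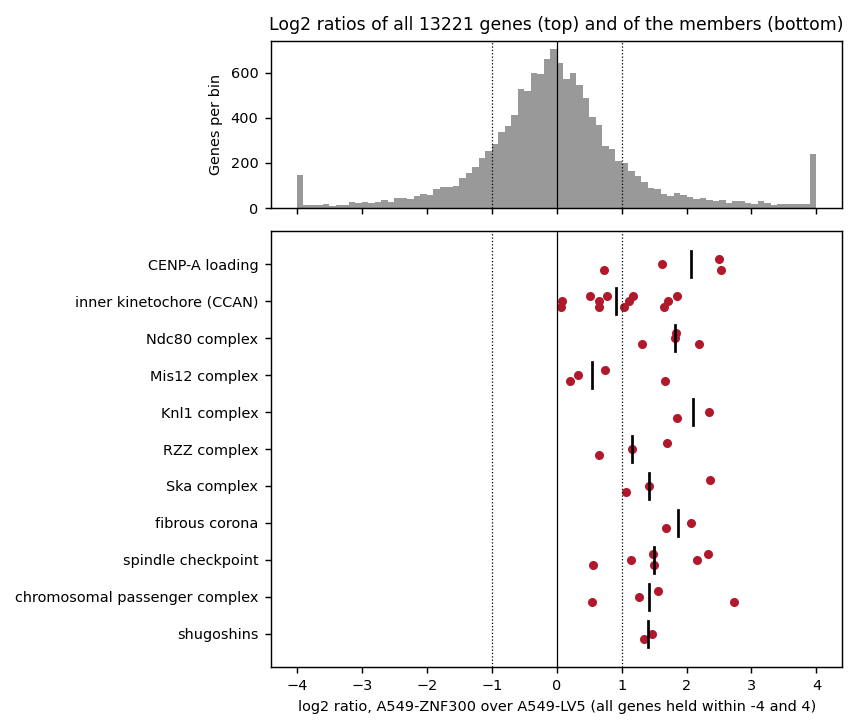
Log2 ratio of A549-ZNF300 over A549-LV5 for all 13221 measured genes (top, genes per bin of 0.1, values beyond -4 and 4 held there) and for each member by subcomplex (bottom, points, with a bar at the median). Dotted lines mark 2-fold; 33 of 46 members lie to the right of the upper one, and none lies left of 0, where CENPQ at 0.06 comes nearest and lies at -0.02 with housekeeping centring.

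The promoters of the members were read for the elements that mark late cell cycle genes, because the members were higher together. The cell cycle genes homology region (CHR, letters TTTGAA) is bound by the DREAM and MuvB complexes, and CCAAT is bound by NF-Y. RefSeq promoters of GRCh38.p14, 250 bases before to 50 after the start of the gene, matched 37 of the 46 measured members. No entry was matched for MIS18A, CENPH, CENPL, CENPM, KNL1, KNTC1, BUB3, TTK and BIRC5. Each motif was searched on both strands, and a CHR and a CCAAT match overlapped, by 1 base, in 1 promoter, that of CDCA8. The CHR letters stood in 17 of 37 member promoters (45.9%), compared to 13.9% of the promoters of 10642 other measured genes and 18.2% of all 27305 genes with a promoter. CCAAT stood in 25 (67.6%), compared to 42.7% of the other measured genes and 39.7% of all. Both stood in 11 member promoters (29.7%) and in 7.55% of those of the other measured genes. The TATA letters TATAAA were in 0 of the 37, compared to 8.82% of the other measured genes. The E2F letters TTTCGCGC were in 1, that of CENPU, or 2.70% compared to 1.09%. Only these exact letters were searched, so the count does not show how many promoters hold other forms of an E2F site. Shown here are the 3 CHR promoters of the members with the largest ratios, that of the CHR member with the lowest ratio, INCENP, and that of CENPQ, which has the lowest ratio of all and no CHR; capitals mark CHR and CCAAT on either strand.
HJURP (chr2:233854486-233854785, minus strand): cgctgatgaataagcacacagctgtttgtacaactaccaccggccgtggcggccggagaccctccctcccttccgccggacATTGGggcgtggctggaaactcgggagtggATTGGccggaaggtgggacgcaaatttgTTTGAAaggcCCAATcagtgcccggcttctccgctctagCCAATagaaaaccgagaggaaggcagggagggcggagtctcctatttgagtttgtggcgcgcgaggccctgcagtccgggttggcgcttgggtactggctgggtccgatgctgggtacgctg
SKA1 (chr18:50374796-50375095, plus strand): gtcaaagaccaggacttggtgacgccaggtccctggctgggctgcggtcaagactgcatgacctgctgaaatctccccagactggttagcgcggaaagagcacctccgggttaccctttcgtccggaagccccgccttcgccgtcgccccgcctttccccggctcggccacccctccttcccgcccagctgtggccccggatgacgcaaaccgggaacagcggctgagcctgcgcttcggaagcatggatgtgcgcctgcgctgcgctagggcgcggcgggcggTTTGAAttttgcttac
ZWINT (chr10:56361210-56361509, minus strand): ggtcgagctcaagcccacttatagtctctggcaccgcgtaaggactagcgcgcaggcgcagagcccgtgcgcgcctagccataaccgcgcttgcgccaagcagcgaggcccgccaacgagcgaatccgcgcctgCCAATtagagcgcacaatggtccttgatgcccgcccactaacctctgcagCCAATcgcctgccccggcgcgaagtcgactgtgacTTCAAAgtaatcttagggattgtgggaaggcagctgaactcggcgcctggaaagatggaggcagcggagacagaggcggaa
INCENP (chr11:62123761-62124060, plus strand): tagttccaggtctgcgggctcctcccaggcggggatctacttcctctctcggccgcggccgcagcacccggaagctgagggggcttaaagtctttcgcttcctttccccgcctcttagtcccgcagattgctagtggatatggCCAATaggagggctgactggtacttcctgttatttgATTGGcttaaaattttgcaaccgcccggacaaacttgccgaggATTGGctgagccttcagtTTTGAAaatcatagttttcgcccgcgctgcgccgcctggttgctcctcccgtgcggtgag
CENPQ (chr6:49463120-49463419, plus strand): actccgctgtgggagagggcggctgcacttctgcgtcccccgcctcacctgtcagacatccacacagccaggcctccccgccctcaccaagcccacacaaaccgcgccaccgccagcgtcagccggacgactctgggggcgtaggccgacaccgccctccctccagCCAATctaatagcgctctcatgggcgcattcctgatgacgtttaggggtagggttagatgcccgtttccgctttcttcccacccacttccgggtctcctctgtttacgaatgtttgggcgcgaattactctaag
Counted from the start of the gene, the CHR of HJURP begins at -111 and stands between CCAAT letters on either side. In ZWINT it begins at -31 and in INCENP at -10, in opposite orientation, whereas in SKA1 it begins at base 35 after the start and no CCAAT is present. CENPQ has 1 CCAAT and no CHR.

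The CHR letters lay near the start in the members. There were 18 CHR sites in the 17 promoters, of which 15 (83.3%) began within 100 bases before to 50 after the start, compared to 39.7% of 1641 sites in the promoters of other measured genes. Their median position was -6.5, against -131 in the other genes. A CHR in that window was present in 15 of the 37 members (40.5%) and in 5.75% of the other measured genes. The members with CHR letters had a median ratio of 1.82, with 14 of 17 at least 2-fold higher, between 0.54 for INCENP and 2.50 for HJURP. The 20 members without had a median of 1.30, with 14 of 20 at least 2-fold higher, between 0.06 for CENPQ and 2.53 for OIP5. The ranges overlapped nearly in full. Among the other measured genes the median was 0.03 with and -0.08 without the letters. A match to letters is not a binding site, and the class sizes of 17 and 20 permit description alone. Only the exact letters TTTGAA were searched, so near variants were not counted. The promoter of OIP5, for example, holds TTCGAA near the start and stands among the members without.

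**Figure D3:**
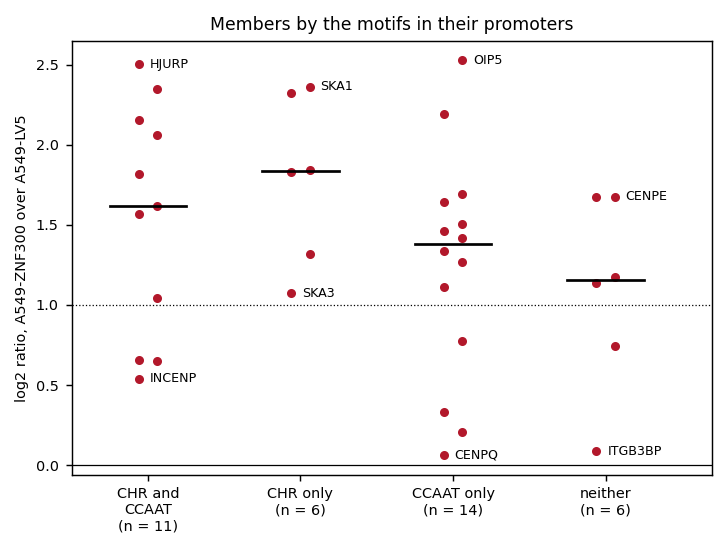
Log2 ratio of A549-ZNF300 over A549-LV5 for the 37 members with a RefSeq promoter, by the letters found in it (bar, median). The medians are 1.62 for CHR and CCAAT, 1.84 for CHR alone, 1.38 for CCAAT alone and 1.16 for neither, and the classes overlap.

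Among the CENP-A loading genes, 3 of 4 were at least 2-fold higher. OIP5, a subunit of the Mis18 complex that licenses the loading of new CENP-A, had signals of 10.93 in A549-ZNF300 and 8.41 in A549-LV5, a ratio of 2.53. HJURP, the chaperone that brings CENP-A to the centromere and whose promoter is shown above, had 11.94 in A549-ZNF300 and 9.44 in A549-LV5, a ratio of 2.50 or 5.67-fold. Only BIRC5 had a larger ratio than these 2 loading factors. CENPA, the histone variant itself, had 10.17 in A549-ZNF300 and 8.55 in A549-LV5 (1.62) on a probe set of a type that may cross-hybridise. MIS18A, the partner of OIP5, had 10.56 in A549-ZNF300 and 9.84 in A549-LV5, a ratio of 0.72. Its 3 detected probe sets disagreed, at 0.72, 1.12 and -0.03.

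The inner kinetochore, which sits on CENP-A nucleosomes, had 6 of 12 members at least 2-fold higher. CENPO was measured with 9.28 in A549-ZNF300 and 7.43 in A549-LV5 (1.85), called present in A549-ZNF300 and absent in A549-LV5. Its second probe set went the other way, with 6.54 in A549-ZNF300 and 6.96 in A549-LV5 (-0.42), and the median over both was 0.71, so neither the direction nor the size for CENPO was settled. CENPM had a ratio of 1.72, with 9.51 in A549-ZNF300 and 7.79 in A549-LV5. CENPW, the histone-fold partner of CENPT, had a ratio of 1.65. CENPC, which binds CENP-A nucleosomes and the Mis12 complex, had 1.04, and 0.96 with housekeeping centring. The CENP-HIKM part was uneven, with CENPM at 1.72, CENPI at 1.17, CENPK at 1.11 and CENPH at 0.51. The only probe set of CENPH was of a type that may cross-hybridise. CENPN, a direct reader of CENP-A, was at 0.66 on the probe set used and at 1.72 and 1.99 on its others. Its partner CENPL was at 0.66, also on a probe set that may cross-hybridise, and at 0.64 on its other. The lowest part was that of CENPO's own complex, with CENPU at 0.78, ITGB3BP (CENP-R) at 0.09 and CENPQ at 0.06, beside CENPO at 1.85. CENPQ had 9.24 in A549-ZNF300 and 9.18 in A549-LV5, and ITGB3BP had 11.67 in A549-ZNF300 and 11.58 in A549-LV5. The differences of CENPQ and ITGB3BP were smaller than the median SD between probe sets of 1 gene, which was 0.35 over 6607 genes.

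The outer kinetochore network of the Knl1, Mis12 and Ndc80 complexes had 7 of 10 members at least 2-fold higher, with a median of 1.75. The 4 subunits of the Ndc80 complex, the main microtubule coupler, were all at least 2-fold higher. SPC24 had 8.49 in A549-ZNF300 and 6.29 in A549-LV5 (2.20), called present in A549-ZNF300 and absent in A549-LV5. NUF2 had 10.76 in A549-ZNF300 and 8.93 in A549-LV5 (1.83), SPC25 a ratio of 1.82 and NDC80 a ratio of 1.32. The Mis12 complex, which ties Ndc80 and KNL1 to the inner kinetochore, was the least changed. DSN1 was its exception, with 9.77 in A549-ZNF300 and 8.10 in A549-LV5 (1.67). NSL1 had 11.83 in A549-ZNF300 and 11.09 in A549-LV5 (0.74), and its 4 detected probe sets ran between -0.57 and 1.04, the highest below the median in A549-LV5 and the lowest with 6.55 in A549-ZNF300 and 7.12 in A549-LV5. MIS12 (0.33) and PMF1 (0.21) were below 2-fold on the only detected probe set of each. As for CENPQ and ITGB3BP, both ratios were smaller than 0.35, the median SD between probe sets of a gene. ZWINT, which binds KNL1, had 13.05 in A549-ZNF300 and 10.70 in A549-LV5, a ratio of 2.35. KNL1, the scaffold on which the BUB proteins gather, had 10.47 in A549-ZNF300 and 8.62 in A549-LV5 (1.85), with 0.88 and 1.21 on its other probe sets, the second below the median in A549-LV5.

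The complexes that load on the outer kinetochore were higher in most members. In the RZZ complex, which brings dynein and MAD1 to unattached kinetochores, ZWILCH had 12.11 in A549-ZNF300 and 10.41 in A549-LV5 (1.70) and KNTC1 had 10.06 in A549-ZNF300 and 8.90 in A549-LV5 (1.16). ZW10, which also works in vesicle transport, was at 0.65. All 3 Ska genes, whose complex follows shortening microtubule ends, were at least 2-fold higher, although SKA3 lay at 0.99 with housekeeping centring. SKA1 had 9.24 in A549-ZNF300 and 6.88 in A549-LV5 (2.36), on a probe set of a type that may cross-hybridise, SKA2 had 12.42 in A549-ZNF300 and 11.00 in A549-LV5 (1.42), with 0.79 on its other probe set, and SKA3 was at 1.07. Of the fibrous corona genes, CENPF had 11.97 in A549-ZNF300 and 9.90 in A549-LV5 (2.06), with 1.98 on a second probe set. The remaining one was dim, with 6.05 in A549-ZNF300 and 0.60 in A549-LV5, where it was called absent, so its ratio of 5.45 has no measured base. The kinesin CENPE, which carries chromosomes to the spindle equator, had 10.34 in A549-ZNF300 and 8.67 in A549-LV5 (1.68).

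The spindle checkpoint genes were at least 2-fold higher in 5 of 6 cases. BUB1B, which encodes the BUBR1 subunit of the mitotic checkpoint complex, had 11.61 in A549-ZNF300 and 9.29 in A549-LV5. MAD2L1, which binds and holds CDC20, had 12.58 in A549-ZNF300 and 10.42 in A549-LV5, and its other 2 probe sets gave 1.48 and 2.13. Both stood over 2 on the log2 scale, at 2.32 and 2.16. BUB1 and TTK, kinases at the head of the checkpoint, were 2.84-fold and 2.79-fold higher. MAD1L1, the platform for MAD2L1, was at 1.14 with a signal of 7.64 in A549-ZNF300 and 6.502 in A549-LV5. BUB3 was the member under 2-fold, with 13.34 in A549-ZNF300 and 12.78 in A549-LV5 (0.56). Of its 6 detected probe sets 5 were positive and 1 was at -0.18, with 6.19 in A549-ZNF300 and 6.37 in A549-LV5, and the highest, at 2.12, was against a signal called absent in A549-LV5.

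In the chromosomal passenger complex, BIRC5 (survivin) had 12.14 in A549-ZNF300 and 9.41 in A549-LV5, and its ratio of 2.73 was the largest of all members. Its other 3 probe sets gave 1.56, 2.48 and 3.39. CDCA8 (borealin) had 10.18 in A549-ZNF300 and 8.61 in A549-LV5 (1.57), and the kinase AURKB was at 1.27. The scaffold INCENP was the exception with 7.88 in A549-ZNF300 and 7.34 in A549-LV5 (0.54). Its promoter, with CHR letters, is shown above. The shugoshins, which guard centromeric cohesion, were at 1.46 for SGO2 (10.497 in A549-ZNF300 and 9.03 in A549-LV5) and at 1.34 for SGO1.

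The probe sets of the members were then compared one by one, because only the brightest entered the values above. The 46 genes had 86 probe sets, of which 77 were detected. Of the 77, 71 lay at or above the array median on both arrays and 6 only in A549-ZNF300, of CENPF, BUB3, NSL1, KNL1 and both of SGO1. Since they passed through the array where they are high, these 6 are left out of the counts that follow. Among the 71, 67 were positive and 4 negative, against 54.1% negative over all such probe sets naming 1 gene. At least 2-fold higher were 44, against 8.79%, and 0 were at least 2-fold lower. There were 29 members with 1 detected probe set and 17 with more. Of the further probe sets detected on both arrays, 22 of 26 were positive, and the 4 that were not belonged to MIS18A, CENPO, NSL1 and BUB3. The median SD between probe sets of a gene was 0.44 for the members and 0.35 for all genes with at least 2.

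**Figure D4:**
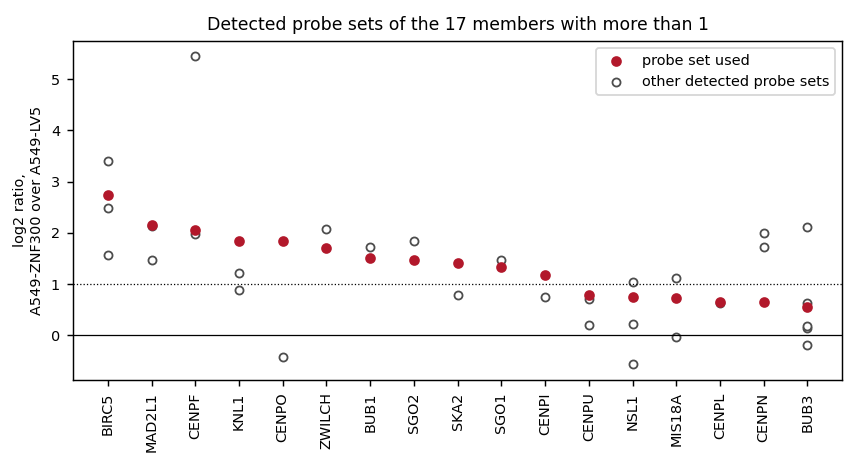
Log2 ratio of A549-ZNF300 over A549-LV5 for each detected probe set of the 17 members with more than 1 (filled, the probe set used; open, the others). Points below 0 are 4 open ones, of CENPO, NSL1, MIS18A and BUB3, and the highest is a dim CENPF probe set at 5.45, called absent in A549-LV5.

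The members lie on 20 chromosomes, so each was set against the other genes of its own chromosome. All 46 ratios exceeded the median of the other measured genes there, by 1.504 at the median and by 0.26 for MIS12 to 2.66 for BIRC5. By at least 1 on the log2 scale it was exceeded by 32, against 14.2% of all genes with chromosome centring. The medians of their chromosomes lay between -0.53 and 0.24. Chromosome 6, with -0.53, carries CENPQ, CENPW and TTK, and relative to it CENPQ lay at 0.59, CENPW at 2.18 and TTK at 2.01. Against the 10 measured genes on either side, 44 of 46 were higher; the exceptions were MIS12 (0.33, neighbours 0.63) and PMF1 (0.21, neighbours 0.27). HJURP, with a ratio of 2.50, lies in the neighbourhood with the highest median, also 0.63.

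**Figure D5:**
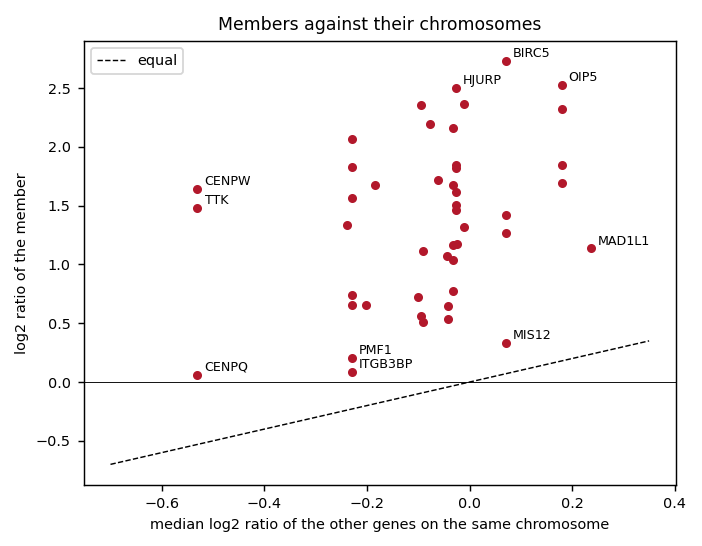
Log2 ratio of each member against the median log2 ratio of the other measured genes on its chromosome (dashed line, equal values). All 46 points lie above the line, MIS12 by 0.26 and BIRC5 by 2.66; CENPQ, at 0.06 here, lies at -0.02 with housekeeping centring.

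Other genes of the pathway were taken from lists by function. Of 7 measured centromere proteins outside the group, 5 were positive and 2 at least 2-fold higher, with a median of 0.44. Over all genes 46.6% were positive and 13.6% at least 2-fold higher, the shares that stand beside the counts of this and the following lists. CENPV had 12.12 in A549-ZNF300 and 10.57 in A549-LV5 (1.55), and CENPX had 11.995 in A549-ZNF300 and 10.63 in A549-LV5 (1.37). CENPT, which recruits Ndc80, went the other way at -0.44, with dim signals of 5.85 in A549-ZNF300 and 6.29 in A549-LV5. Among 8 checkpoint effectors and silencers, 3 were at least 2-fold higher, with a median of 0.61. SPDL1 (Spindly), which joins dynein to the RZZ complex, had 12.22 in A549-ZNF300 and 9.95 in A549-LV5 (2.27), and CDC20, the target of the checkpoint, had 11.58 in A549-ZNF300 and 10.26 in A549-LV5 (1.32). Of 10 kinetochore-microtubule and spindle factors, 5 were past 2-fold in the higher direction and 1 in the lower, with a median of 0.94. SPAG5 (astrin) had 11.00 in A549-ZNF300 and 8.50 in A549-LV5 (2.50) and TPX2 had 11.98 in A549-ZNF300 and 10.05 in A549-LV5 (1.92), whereas CLIP1, a protein of microtubule plus ends, was lower, at 11.04 in A549-ZNF300 and 12.16 in A549-LV5 (-1.12). Of 11 cohesion genes, 5 were at least 2-fold higher and 4 were negative, with a median of 0.41. PTTG1 (securin) had 13.40 in A549-ZNF300 and 11.92 in A549-LV5 (1.48) and CDCA5 (sororin) had 10.57 in A549-ZNF300 and 9.15 in A549-LV5 (1.42), and of the core subunits SMC1A was at 1.20, RAD21 at 0.00, SMC3 at -0.28 and STAG2 at -0.41.

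General proliferation markers were higher alongside the members. Of 11, all were positive and 9 were at least 2-fold higher, against 46.6% and 13.6% of all genes, with a median of 1.48 beside 1.44 for the kinetochore genes. CCNB1 had 13.15 in A549-ZNF300 and 10.64 in A549-LV5 (2.51), TOP2A had 13.74 in A549-ZNF300 and 11.33 in A549-LV5 (2.41), and MKI67 was at 1.62. In its own assays the study reported slower proliferation of A549-ZNF300 than of the control, with an arrest of the cell cycle in G2. From the expression profiles of these populations the study also reported most cyclin, cyclin-dependent kinase and checkpoint genes as upregulated in A549-ZNF300. Whether the higher marker signals go with faster or slower division was not tested here. The part of the share of dividing cells in the ratios of the kinetochore genes was not tested.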

How the data were processed

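Expression of A549-ZNF300 and A549-LV5 was measured on 1 Affymetrix U133 Plus 2.0 array each. The authors deposited log2 signals of 54675 probe sets. The submitters' processing notes name MAS5 and affy, and the methods of the study name SCAN/UPC; which made the signals, and versions, are not given in the sources used here. A second deposited table of 8187 probe sets gave detection calls, and its ratio and regulation columns, comparisons by the authors, were not used.

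Signals were used as deposited, with Python 3.11.15, pandas 2.3.3 and numpy 2.4.6. Gene symbols came from the platform annotation, which gave 1 gene to 41097 probe sets. A probe set counted as detected where its signal reached the array's median on at least 1 array. Of several detected probe sets, the brightest by mean log2 signal stood for the gene. Of the probe sets used for members, 33 were in the call table. Its member probe sets are at least 2-fold apart, but some dim ones that far apart are missing, such as one of AURKB at 4.84. Of the 33, 30 were present on both arrays and 2 present on A549-ZNF300 and absent on A549-LV5. The remaining 1 was present on A549-ZNF300 and marginal on A549-LV5. These calls come from a filtered table and are not a separate check of detection. The calculations were tested on simulated data. The members, lists and motifs were chosen with earlier results of these data known. Named with both signals were, per subcomplex, the 2 members with the largest absolute ratio, members with detected probe sets of opposite sign, and from each other list the 2 largest; values of further genes were added after they were seen. Promoter letters came from RefSeq (GRCh38.p14). No replicate, test or p-value was available. Alternatives were scaling, probe set choice, filters, treatment of dim signals, chromosome centring and threshold.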

Additional observations from a re-analysis of the deposited data

How the results depend on the processing

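The count of members at least 2-fold higher lay between 29 and 33 under alternative scaling, probe set choice, filters, floors and chromosome centring. The median ratio of the members lay between 1.36 and 1.55. The share of all genes at least 2-fold higher moved with these settings. It ran between 9.31% at or above the median on both arrays, with 32 of 45 members, and 16.98% without a filter, with 33 of 46. Of the lower counts of 29, 1 was of 38 members without probe sets of the _x_at and _s_at types, against 14.8% of all genes. The other was of 41 members at or above the 75th percentile, against 11.6%. Thresholds of 1.5-fold and 3-fold gave 39 and 19 members, against 22.5% and 7.64% of all genes. No member was at least 2-fold lower under any of these. Housekeeping centring left 45 of 46 ratios positive and 31 at least 2-fold higher, the latter against 12.3% of all genes. Without _x_at and _s_at probe sets, 37 of 38 were positive, with BUB3 at -0.18, NSL1 at 0.23 and CENPN at 1.99; the medians of CENP-A loading and of the fibrous corona were then 2.50 and 3.56, because CENPA had no other probe set and the dim CENPF probe set at 5.45, called absent in A549-LV5, was used. Medians over probe sets gave 0.71 for CENPO, 1.21 for KNL1 and 1.72 for CENPN. A median counted as moved when it differed by over 0.35, the median SD between probe sets of a gene. With 1 array per condition, signal over background and the missing replicate limit every value. No paired analysis was possible because each condition had 1 array.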

Other observations

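Of the 86 probe sets of the members, 9 lay below the array median on both arrays and entered no value of the report. AURKB had a second probe set with 5.32 in A549-ZNF300 and 0.48 in A549-LV5, and CENPI one with 5.62 in A549-ZNF300 and 1.81 in A549-LV5. A dim BUB1 probe set went the other way, with 2.06 in A549-ZNF300 and 4.75 in A549-LV5, and a dim SPC24 probe set had 3.505 in A549-ZNF300 and 4.47 in A549-LV5. The other dim ones belonged to CENPI, CENPN, KNL1 and BUB1.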
